A study of Mus musculus with 12 samples.

Results

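The 6 genes described here are the ligand Nodal, its co-receptor Tdgf1 (Cripto), the antagonists Lefty1 and Lefty2, the RNA-binding protein Nanos2 and the transcription factor Egr4. They were taken by symbol, and all 6 of 6 symbols were found among the 12845 genes of both deposited tables. RNA was sequenced from mouse gonads at E13.5 (embryonic day), from embryos of the cross labelled Oct4GFPxICR, in 4 groups of 3 libraries: male primordial germ cells (PGCs), female PGCs, male soma and female soma. PGCs were sorted by flow cytometry as GFP-positive cells and soma as the GFP-negative cells of the same kind of gonad, so soma is a mixture of every unlabelled cell type. The cells of all groups came from matings with males carrying the Oct4GFP reporter, which marks cells that use the Oct4 (Pou5f1) promoter, and no mutation or drug treatment is named in the labels. Nothing in the labels says that replicates came from separate litters, so p-values here measure the spread between these libraries.

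Nodal is a secreted ligand of the TGF-beta family. With the co-receptor Tdgf1 it signals through activin receptors to Smad2 and Smad3, which enter the nucleus with Smad4 and, with the DNA-binding factor Foxh1, switch on genes that in the embryo include Nodal itself, Lefty1 and Lefty2. The Lefty proteins block Nodal outside the cell and so close a feedback loop. In the mouse fetal testis, germ cells use this pathway for a short time around sex determination. Nanos2 is made by male germ cells of the fetal testis, where it binds mRNAs together with Dnd1, recruits the CCR4-NOT deadenylase and holds back meiosis. Egr4 is a zinc finger factor of the early growth response family that mouse spermatogenesis needs.

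Libraries held 6454322 to 24791414 reads over the measured genes. Levels are given as CPM, reads of a gene per 1000000 reads over all measured genes. Marker genes matched the sort in all 4 groups. The summed level of 8 germ cell markers was 4701 to 5012 CPM in male PGCs and 3614 to 3859 CPM in female PGCs, against 10.2 to 18.02 CPM in male soma and 19.2 to 175 CPM in female soma. All 8 Sertoli cell markers were nevertheless higher in male than in female PGCs, where 32.5% of all genes were. Their summed level in male PGC libraries was 5.29% to 11.6% of the male soma mean, and that of 5 fetal Leydig markers at most 0.163%. Of the Sertoli markers, Cst9 was at 0 reads in every female PGC library and none was at 0 in male PGCs.

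All 6 genes were high in male PGCs and close to 0 in female PGCs. In male soma Lefty2 was clearly present, Lefty1 was low and the other 4 were at or near 0, and in female soma all 6 were at or near 0. Within male PGCs the genes split by replicate: in replicate 2 Nodal, Tdgf1, Lefty1 and Lefty2 were highest while Nanos2 and Egr4 were lowest.

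**Figure D1:**
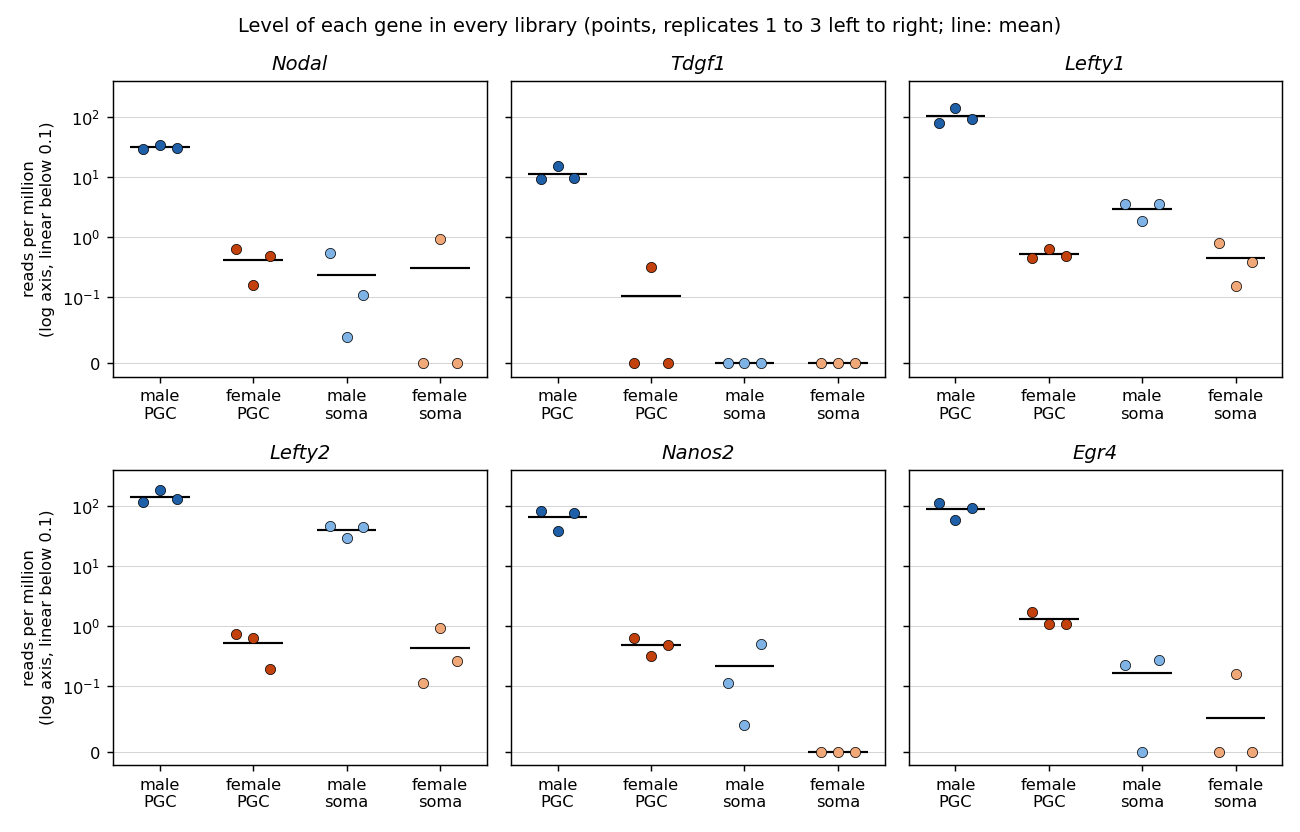
CPM of each gene (vertical axis, logarithmic and linear below 0.1) in the 12 libraries, grouped as male PGCs, female PGCs, male soma and female soma; points are libraries and lines are group means. In each of the 6 panels the 3 male PGC libraries lie above all others, and Lefty2 is the panel in which male soma comes closest, at 28.9 to 46.1 CPM.

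The genes lie on 5 chromosomes (GENCODE vM21, GRCm38). Nodal (ENSMUSG00000037171.6) is on chromosome 10 from 61417972 to 61425338, Tdgf1 (ENSMUSG00000032494.12) on chromosome 9 from 110939603 to 110946158, Nanos2 (ENSMUSG00000051965.8) on chromosome 7 from 18987400 to 18988962 and Egr4 (ENSMUSG00000071341.4) on chromosome 6 from 85511121 to 85513589. Lefty2 (ENSMUSG00000066652.5), from 180893108 to 180899103, and Lefty1 (ENSMUSG00000038793.8), from 180935022 to 180938400, are neighbours on chromosome 1. The reads of some members cannot be assigned with certainty. Of the 50-base windows of its transcripts, Lefty1 shared 17.9% with Lefty2, and Lefty2 shared 12% with other genes, nearly all with Lefty1. Tdgf1 shared 8.86% of windows with a pseudogene, and Nanos2 overlaps the antisense gene Gm45058 in 47.4% of its windows. Nodal and Egr4 shared 0.

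The promoters of 4 of the 6 genes, from 250 bases before to 50 bases after the start site, are shown because these genes are together high in male PGCs and because Foxh1, Smad and Egr proteins bind known short motifs. Sequences are from RefSeq, GRCm38.p6, written along the gene's own strand with positions counted from the RefSeq start, and capitals mark matches to the motifs searched.
Nodal, chr10:61417722-61418021, plus strand: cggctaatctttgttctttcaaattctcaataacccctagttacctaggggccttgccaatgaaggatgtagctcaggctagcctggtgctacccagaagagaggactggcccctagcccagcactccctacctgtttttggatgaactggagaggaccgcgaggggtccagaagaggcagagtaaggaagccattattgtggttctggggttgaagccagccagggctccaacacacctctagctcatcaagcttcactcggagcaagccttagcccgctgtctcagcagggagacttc
Tdgf1, chr9:110946109-110946408, minus strand: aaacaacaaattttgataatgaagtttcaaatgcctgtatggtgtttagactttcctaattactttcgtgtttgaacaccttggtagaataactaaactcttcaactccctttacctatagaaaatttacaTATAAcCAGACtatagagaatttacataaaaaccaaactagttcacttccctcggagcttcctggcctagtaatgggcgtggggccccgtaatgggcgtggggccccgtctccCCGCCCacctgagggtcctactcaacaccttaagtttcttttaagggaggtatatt
Nanos2, chr7:18987274-18987573, plus strand: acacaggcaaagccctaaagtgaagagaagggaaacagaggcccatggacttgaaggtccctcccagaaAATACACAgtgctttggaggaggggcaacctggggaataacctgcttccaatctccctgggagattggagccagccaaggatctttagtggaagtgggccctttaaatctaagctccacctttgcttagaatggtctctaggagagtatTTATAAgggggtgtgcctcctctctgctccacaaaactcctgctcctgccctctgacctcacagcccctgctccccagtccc
Egr4, chr6:85513540-85513839, minus strand: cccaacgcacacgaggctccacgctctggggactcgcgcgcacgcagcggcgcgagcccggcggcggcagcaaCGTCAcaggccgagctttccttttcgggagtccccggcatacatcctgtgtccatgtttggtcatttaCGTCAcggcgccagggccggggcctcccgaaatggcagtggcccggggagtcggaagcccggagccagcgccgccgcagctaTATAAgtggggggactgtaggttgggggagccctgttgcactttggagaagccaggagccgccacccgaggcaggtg
The motifs searched, on both strands, were the Foxh1 core AATNCACA, the Smad motif CAGAC, the TATA-like letters TATAA, the GC box GGGCGG, the core of the cAMP response element TGACG and the Egr motif GCGNGGGCG. Nanos2 had a Foxh1 core 181 bases before the start, a match that 3.6% of 32851 promoters of this length hold. Tdgf1 had a Smad motif 113 bases before the start, held by 49.6% of promoters, next to a TATAA 119 bases before it, and a GC box on the opposite strand at 6 bases (35.7% of promoters). Egr4 had the cAMP response element core on the opposite strand at 177 and 109 bases before the start, a motif held by 20.8% of promoters. Both Nanos2 and Egr4 had TATAA close to the RefSeq start, at 31 and 27 bases before it, and Nanos2 had an overlapping match on the opposite strand at 32 bases. TATAA anywhere was held by 24.9% of promoters, and on the gene's strand between 35 and 25 bases before the start by 2.97%, a window chosen after the matches were seen. None of the 6 motifs was found in the Nodal window, and the Egr motif, held by 5.55% of promoters, was in none of the 4. The RefSeq start of Nanos2, at 18987524, lies 124 bases inside the GENCODE gene, which begins at 18987400, so its positions hold for the RefSeq start only. For Nodal, Tdgf1 and Egr4 both annotations have the same start. These matches are letters only and say nothing about binding.

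Nodal, the ligand, had 29.7, 34.3 and 30.0 CPM in male PGC replicates 1 to 3, against 0.627, 0.155 and 0.478 CPM in female PGCs. Male soma held 0.546, 0.0403 and 0.109 CPM, and female soma 0, 0.921 and 0 CPM. Male PGCs were the only group above 1 CPM, and the other 3 groups overlapped. The group totals were 1990 reads in male PGCs and 20 in female PGCs, a CPM ratio of 62.0 (95% exact interval 40.03 to 101.7, counting error only). On the log2 scale of the read depth table, Nodal was higher in male than in female PGCs by 3.32 ± 0.27 (SE, n = 3 libraries per group; limma, Benjamini-Hochberg adjusted p = 1.58e-07). Against male soma it was higher by 3.64 ± 0.27 (limma, adjusted p = 1.41e-08). That table draws low values together, so its differences are smaller than those of the reads.

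Tdgf1, the co-receptor that Nodal needs to bind its receptors, was the lowest member, with 9.32, 15.4 and 9.54 CPM in male PGCs, against 0, 0.31 and 0 CPM in female PGCs. No read of it was found in any of the 6 soma libraries, and the lowest male PGC library lay far above the 1 female PGC library with any read. The 740 male PGC reads were therefore at least 205-fold more CPM than in male soma, taking 3 reads over the group as the limit of a count of 0. Tdgf1 was higher in male PGCs by 1.84 ± 0.11 against female PGCs (limma, adjusted p = 1.5e-08) and by 1.94 ± 0.11 against male soma (limma, adjusted p = 1.27e-09).

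Lefty1 and Lefty2, the secreted inhibitors, had the highest mean CPM of the members in male PGCs, though in replicate 1 Lefty1 lay below Egr4 and Nanos2. Lefty1 had 80.4, 140.4 and 92.7 CPM in male PGCs, against 0.448, 0.62 and 0.478 CPM in female PGCs. In male soma it had 3.50, 1.86 and 3.53 CPM, against 0.778, 0.153 and 0.381 CPM in female soma. Every male PGC library thus lay above every male soma library, and every male soma library above every female soma library. Lefty1 was higher in male PGCs by 5.54 ± 0.23 against female PGCs (limma, adjusted p = 7.27e-10) and by 4.09 ± 0.23 against male soma (limma, adjusted p = 8.59e-10). Of the 12845 genes, 0.0389% had a larger difference between male and female PGCs, a share given as a description only.

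Lefty2 had 116, 182 and 129 CPM in male PGCs, against 0.716, 0.62 and 0.191 CPM in female PGCs. In male soma it stood at 46.1, 28.9 and 44.6 CPM, against 0.111, 0.921 and 0.254 CPM in female soma. The order was male PGCs, then male soma, then female PGCs and female soma, which overlapped. Lefty2 was higher in male PGCs by 5.87 ± 0.26 against female PGCs (limma, adjusted p = 1.1e-09) and by 1.61 ± 0.26 against male soma (limma, adjusted p = 4.82e-05).

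Nanos2, the repressor of meiosis, had 81.0, 38.5 and 75.1 CPM in male PGCs, against 0.627, 0.31 and 0.478 CPM in female PGCs. Male soma held 0.109, 0.0403 and 0.489 CPM, and female soma had 0 reads in all 3 libraries. Replicate 2 was the low one of the male PGCs, and still above every library of the other groups. Its difference between male and female PGCs was 6.01 ± 0.34 (limma, adjusted p = 7.65e-09), and 0.0234% of all genes had a larger one. Against male soma the difference was 6.62 ± 0.34 (limma, adjusted p = 3.74e-10).

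Egr4 had 113, 58.0 and 90.6 CPM in male PGCs, against 1.70, 1.08 and 1.05 CPM in female PGCs. In male soma it had 0.218, 0 and 0.272 CPM, and in female soma 0, 0.153 and 0 CPM. Male PGCs did not overlap any group, and female PGCs lay above both somas. Egr4 was higher in male PGCs by 5.23 ± 0.32 against female PGCs (limma, adjusted p = 1.34e-08) and by 6.79 ± 0.32 against male soma (limma, adjusted p = 1.5e-10).

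Levels per kilobase of exon, a rough way to compare different genes, take all exons of a gene as its length. On this scale the antagonists had the highest means in male PGCs and the co-receptor the lowest. Lefty1 and Lefty2 stood at 59.5 ± 18.02 and 54.5 ± 13.3 CPM per kilobase, Nanos2 and Egr4 at 41.5 ± 14.7 and 40.6 ± 12.9, Nodal at 15.0 ± 1.23 and Tdgf1 at 4.36 ± 1.32 (SD, n = 3). The spread of the first 4 genes overlapped, while the ligand and its co-receptor lay below all of them. In replicate 1 Egr4 and Nanos2, at 52.7 and 51.8, stood above Lefty1 and Lefty2, at 45.8 and 44.3. In replicates 2 and 3 the antagonists stood first. The Nanos2 value is less certain, since an antisense gene overlaps 47.4% of its windows and how counting treated strand is not known. Per length, transcripts of the antagonists were thus more abundant than those of the ligand.

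Set against all genes, 6 of 6 members were higher in male than in female PGCs, where 32.5% of the 12845 genes were higher, and 6 of 6 were higher in male PGCs than in male soma, where 39.1% were. The groups did not overlap for any of the 6 in either comparison, against 34.7% of genes with every male PGC library above every female one and 40.3% with every male PGC library above every male soma library. Both comparisons share the male PGC libraries. Every gene in the tables reached at least 5.07 CPM in 3 or more libraries, and 5 of the 6 members, all but Lefty2, did so only through male PGCs: outside them Lefty1 was at most 3.53 CPM and the other 4 at most 1.7 CPM. These 5 had to come out higher. The counts over the members, here and below, are therefore a description and nothing is read from them against the shares of all genes. The same holds for the shares of genes with a larger difference than Lefty1 or Nanos2, given above.

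**Figure D2:**
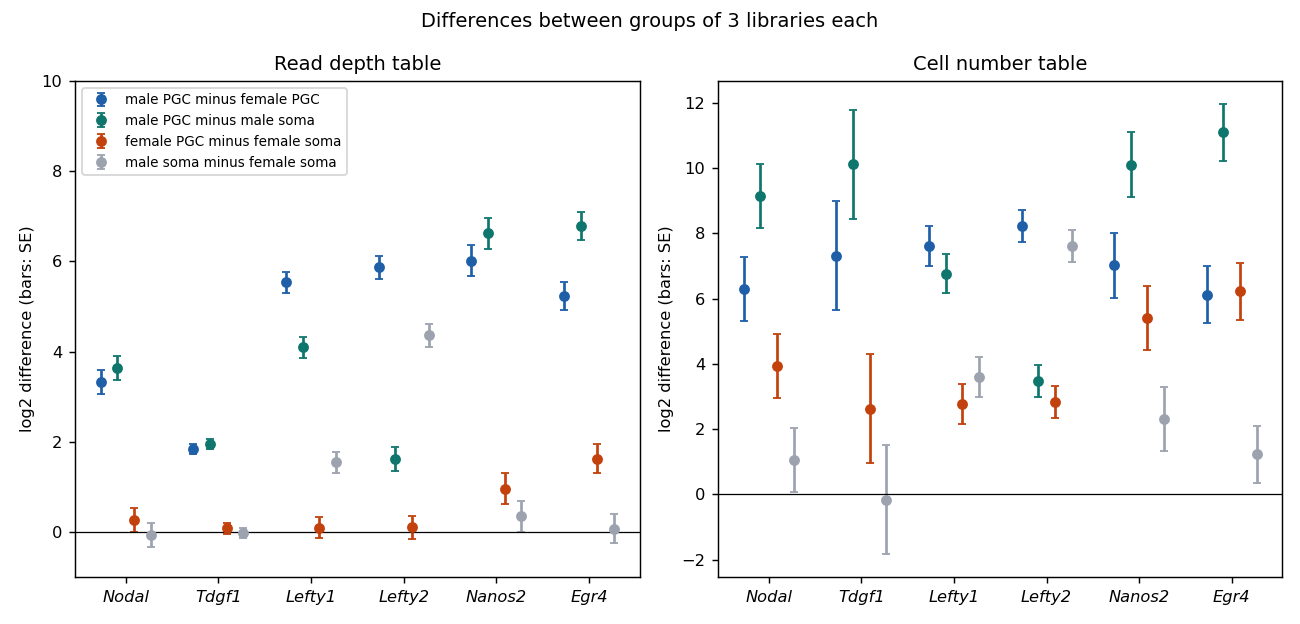
Differences in log2 value between groups of 3 libraries (vertical axis; bars are SE) for the 6 genes, in the read depth table on the left and the cell number table on the right. In the left panel male PGCs lie above female PGCs and above male soma for all 6 genes, by 1.61 or more, and for Lefty1 and Lefty2 male soma also lies above female soma, by 1.54 and 4.36 on the log2 scale.

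Between female PGCs and female soma only Nanos2 and Egr4 differed. Nanos2 was higher in female PGCs by 0.96 ± 0.34 (limma, adjusted p = 0.0189) and Egr4 by 1.62 ± 0.32 (limma, adjusted p = 0.00031), so that 2 of 6 members were higher, where 38.7% of all genes were. Their groups did not overlap, as for 39.1% of genes. The reads behind these calls were few. Nanos2 had 21 reads over the female PGC libraries against 0 in female soma, at least 4.17-fold more CPM. Egr4 had 56 reads against 1, a ratio of 33.4 with a 95% exact interval of 5.75 to 1341 (counting error only). Without female PGC replicate 1 the call of Nanos2 was lost (limma, adjusted p = 0.0606), and with voom on the reads neither gene passed. For Nodal, Tdgf1, Lefty1 and Lefty2 the differences were 0.25 ± 0.27, 0.08 ± 0.11, 0.09 ± 0.23 and 0.10 ± 0.26, with limma adjusted p from 0.391 to 0.726.

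Male and female soma differed in the antagonists. Lefty1 was higher in male soma by 1.54 ± 0.23 (limma, adjusted p = 0.000247) and Lefty2 by 4.36 ± 0.26 (limma, adjusted p = 5.39e-08), so that 2 of 6 members were higher, where 11% of all genes were, and in both cases the groups did not overlap, as for 19.7% of genes. In CPM, Lefty2 was 97.2-fold higher in male soma, from 1958 reads against 9 (95% exact interval 51.1 to 213), and Lefty1 was 5.81-fold higher, from 143 reads against 11 (3.15 to 11.9). With voom on the reads the call of Lefty1 ended (limma, adjusted p = 0.244). Lefty1 shares 17.9% of its 50-base windows with Lefty2, which was far higher in male soma. Whether some male soma reads given to Lefty1 came from Lefty2 was not tested. Nodal, Tdgf1, Nanos2 and Egr4 differed by -0.06, -0.02, 0.35 and 0.07 on the log2 scale, with limma adjusted p of 0.518 or more.

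The male soma level of Lefty2 was out of proportion to that of germ cell transcripts. It was 28.0% of the male PGC level, against 2.83% for Lefty1, 0.739% for Nodal, 0.328% for Nanos2, 0.187% for Egr4 and 0 for Tdgf1. Germ cell markers summed to 0.208% to 0.367% of their male PGC level in the same 3 libraries, and the highest of the 8, Dnd1, reached 1.73%. In male soma Lefty2 was lowest in replicate 2, at 0.637 of the mean of the other replicates, and in that library 5 of 5 fetal Leydig and 5 of 5 macrophage markers with at least 10 CPM in male soma were lowest, as were 3 of 8 Sertoli markers, where 36.1% of 10326 such genes were. In the same library 3 of 3 endothelial and 4 of 6 erythroid markers were highest, with 1 erythroid marker lowest, and of 3 pregranulosa markers 1 was highest and 0 lowest, where 30.3% of these genes were highest. The Leydig markers summed to 4706, 3373 and 4639 CPM in male soma replicates 1 to 3, the erythroid markers to 3383, 8578 and 4152 CPM and the endothelial markers to 92.7, 145 and 85.9 CPM. The part of any somatic cell type in the Lefty2 level was not tested, and in bulk samples fewer cells of a type and less RNA per cell cannot be told apart.

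**Figure D3:**
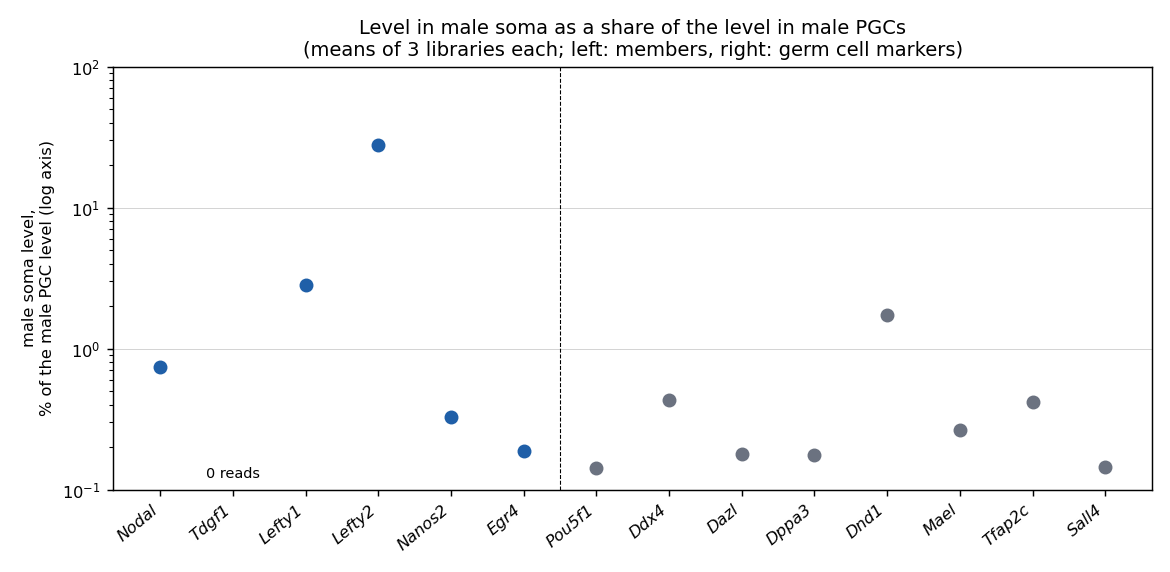
Mean level in male soma as a percent of the mean level in male PGCs (vertical axis, logarithmic; 3 libraries per group), for the 6 genes on the left and 8 germ cell markers on the right. Lefty2 stands at 28.0%, Lefty1 at 2.83%, and the other members and the markers at 1.73% or lower.

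The difference between germ cells and soma was itself larger in males than in females for all 6 genes. By read depth the male difference exceeded the female one by 3.38 ± 0.38 for Nodal, 1.86 ± 0.16 for Tdgf1, 4.00 ± 0.33 for Lefty1, 1.51 ± 0.37 for Lefty2, 5.66 ± 0.48 for Nanos2 and 5.16 ± 0.45 for Egr4 (limma interaction, adjusted p of 0.00318 or less), where 28.9% of all genes had a larger difference in males. With voom on the reads 3 of the 6 interactions passed, those of Nodal, Tdgf1 and Lefty1. In the cell number table the excess passed for 5 of 6, where 5.16% of all genes did (9.22% without male soma replicate 3), and the call of Lefty2 ended, at 0.63 ± 0.69 (limma, adjusted p = 0.458).

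On the cell number scale, which the authors set from spike-in RNA added per cell, male soma replicate 3 stood apart: its median log2 value was 5.25, against 4.33 and 4.29 in replicates 1 and 2. The male PGC differences held for 6 of 6 genes. Against female PGCs they were 6.28 ± 0.98 for Nodal, 7.32 ± 1.68 for Tdgf1, 7.61 ± 0.60 for Lefty1, 8.23 ± 0.49 for Lefty2, 7.02 ± 0.98 for Nanos2 and 6.11 ± 0.87 for Egr4, with limma adjusted p of 7.12e-05 or less, where 17.7% of all genes were higher (28.1% with only the groups compared). A gene without reads takes a floor value on this scale that differs between libraries. The size of the Tdgf1 difference rests on 2 female PGC reads and is thus uncertain. Against male soma 6 of 6 were higher, where 64% of all genes were. Between female PGCs and female soma 5 of 6 were higher, where 77.2% of all genes were, a share near the background. Between male and female soma 3 of 6 were higher per cell, where 63.6% were, a share that was 39.6% without female soma replicate 2 and 26.7% with only the groups compared. These were Lefty1, Lefty2 and Nanos2, and the call of Nanos2 (2.31 ± 0.98; limma, adjusted p = 0.0306) rested on 11 reads against 0 and was lost with each of 5 libraries left out in turn, namely the 3 male PGC libraries, male soma replicate 3 and female soma replicate 1.

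The male PGC replicates did not carry the members in fixed proportion. Against the mean of replicates 1 and 3, replicate 2 had a ratio of 0.493 for Nanos2 and 0.569 for Egr4, against 1.64 for Tdgf1, 1.62 for Lefty1, 1.48 for Lefty2 and 1.15 for Nodal. Among 8818 genes with at least 10 CPM in male PGCs, 0.805% had a lower ratio than Nanos2 and 0.987% a higher one than Tdgf1. Replicate 2 was lowest for 37.9% of these genes and highest for 39.2%. It also stood apart over genes in general: the chi-square of reads was 30.4 and 24.79 times the degrees of freedom against replicates 1 and 3. Between replicates 1 and 3 it was 11.38 times. The 6 measured genes of the male germ cell programme all had their lowest value in replicate 2: the piRNA-pathway argonaute Piwil4 had 56.6, 15.1 and 33.8 CPM in replicates 1 to 3, and the tudor-domain helicase Tdrd9 had 49.0, 9.39 and 28.1 CPM. The Egr co-repressor Nab2 followed the same course, with 85.2, 28.1 and 73.8 CPM. Other Nodal targets of the embryo were highest in replicate 2 in 2 of 3 cases, and FGF and retinoid genes in 7 of 8. What sets replicate 2 apart was not tested, and without it all 6 members still passed in both male PGC comparisons.

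**Figure D4:**
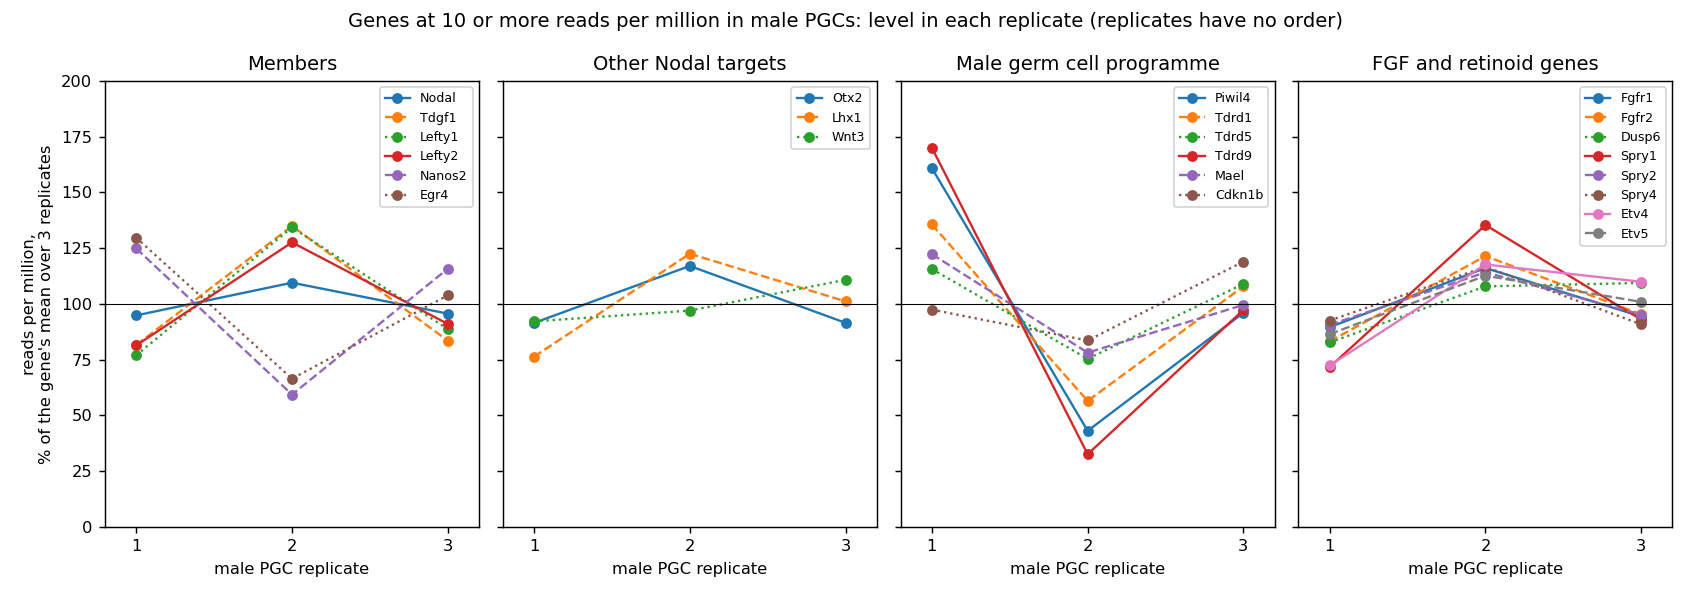
Level in each male PGC replicate as a percent of the gene's own mean over the 3 replicates (vertical axis), for genes with at least 10 CPM in male PGCs; lines join the values of a gene and the replicates have no order. In replicate 2, Nanos2, Egr4 and all 6 genes of the male germ cell programme lie lowest, while Nodal, Tdgf1, Lefty1 and Lefty2 and 7 of 8 FGF and retinoid genes lie highest.

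Among genes that encode and process ligands of this kind, Gdf3 was higher in male PGCs and the convertases were lower. Over all 12845 genes the median difference was -0.01, with 32.5% higher and 32.8% lower. Gdf3, a ligand that shares the co-receptor with Nodal, was higher by 1.27 ± 0.19 (limma, adjusted p = 5.04e-05), and the activin subunits Inhba (0.25 ± 0.21) and Inhbb (-0.16 ± 0.15) did not pass. In the cell number table Inhba did pass as higher in male PGCs, at 1.76 ± 0.71 (limma, adjusted p = 0.0333). Of 4 measured ligands, Nodal included, 2 were higher (median 0.76). The convertases that can cut the Nodal precursor were lower in 3 of 3 cases (median -1.10), with Furin at -1.10 ± 0.11, Pcsk6 at -1.90 ± 0.10 and Pcsk5 at -0.60 ± 0.19. Furin stood at 47.9 ± 8.99 CPM in male PGCs and 143 ± 24.6 CPM in female PGCs, and Pcsk6 at 8.28 ± 1.79 and 55.5 ± 4.37 CPM (SD, n = 3 each). The call of Pcsk5 ended with voom, with quantile normalization and without female PGC replicate 1.

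Receptors and Smads were present in germ cells of both sexes. The type I receptor gene Acvr1b was higher in male PGCs by 0.60 ± 0.09 and the type II receptor gene Acvr2a lower, at -0.48 ± 0.09, while Acvr2b differed by 0.10 ± 0.11 and did not pass. The call of Acvr2a ended in the cell number table (limma, adjusted p = 0.058). Of 4 measured co-receptors and receptors, Tdgf1 included, 2 were higher and 1 lower (median 0.35). Of 6 Smads and partners, 2 were higher, Smad3 by 0.98 ± 0.11 and Smad4 by 0.71 ± 0.08, and 0 were lower (median 0.15). Of all genes 32.5% were higher and 32.8% lower, so the higher Smads are near the background and no result about the list. Smad2, Trim33, Drap1 and Foxh1 differed by 0.11 ± 0.11, 0.18 ± 0.08, 0.00 ± 0.08 and -0.02 ± 0.25. Foxh1, the factor that brings Smads to many Nodal targets, had 30.1 ± 9.65 CPM in male PGCs and 34.1 ± 11.4 CPM in female PGCs (SD, n = 3 each), against 0.108 and 1.63 CPM on average in male and female soma. Female PGCs therefore held transcripts of the receptors, Smad2, Smad4 and Foxh1 while those of Nodal and Tdgf1 were near 0.

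Of 18 measured antagonists and feedback inhibitors, Lefty1 and Lefty2 included, 12 were higher in male PGCs and 2 lower (median 0.47). Of all genes 32.5% were higher and 32.8% lower. The Smad co-repressor gene Tgif1 was higher by 2.19 ± 0.10, Pmepa1, a Smad-binding membrane protein gene that the pathway itself induces, by 2.23 ± 0.20, and Ppm1a, which can dephosphorylate Smads, by 1.26 ± 0.10. The co-repressor genes Ski and Skil were higher by 0.36 ± 0.06 and 0.33 ± 0.11. Leaving out male PGC replicate 2 gave 11 higher, and requiring a log2 difference of at least 1 gave 5. The 2 lower ones, named after their values were seen, were the ubiquitin ligase gene Smurf2 (-0.99 ± 0.08) and Tmem147 (-0.61 ± 0.08). The call of Ski ended in the cell number table (limma, adjusted p = 0.231). The call of Skil ended there too, with quantile normalization, with voom, with either CPM pseudocount and without male PGC replicate 2 or 3 or female PGC replicate 2.

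Of other genes that Nodal switches on in the embryo, 3 were measured. The homeobox gene Otx2 had 40.2 ± 5.93 CPM in male PGCs and 0 reads in female PGCs, a difference of 4.82 ± 0.12 (limma, adjusted p = 1.54e-11). Lhx1, a homeobox gene of the early embryo, and the secreted signal gene Wnt3 were higher by 2.45 ± 0.19 and 2.96 ± 0.15. Otx2 and Wnt3 reached 5.07 CPM in 3 libraries only through male PGCs. For Otx2, at most 0.0807 CPM outside them, being higher there was fixed by which genes the tables hold. Wnt3 came close without male PGCs, with at most 6.02 CPM and a third-highest library of 4.96 CPM outside them. Its being higher was thus not fixed in the same way. Lhx1 would be in the tables without male PGCs, with at most 11.6 CPM outside them. The other 6 genes of this list, Gsc, T, Eomes, Mixl1, Foxa2 and Sox17, were not found by symbol among the 12845 genes. Nothing is known here of their levels, so the 3 measured genes do not stand for the list.

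**Figure D5:**
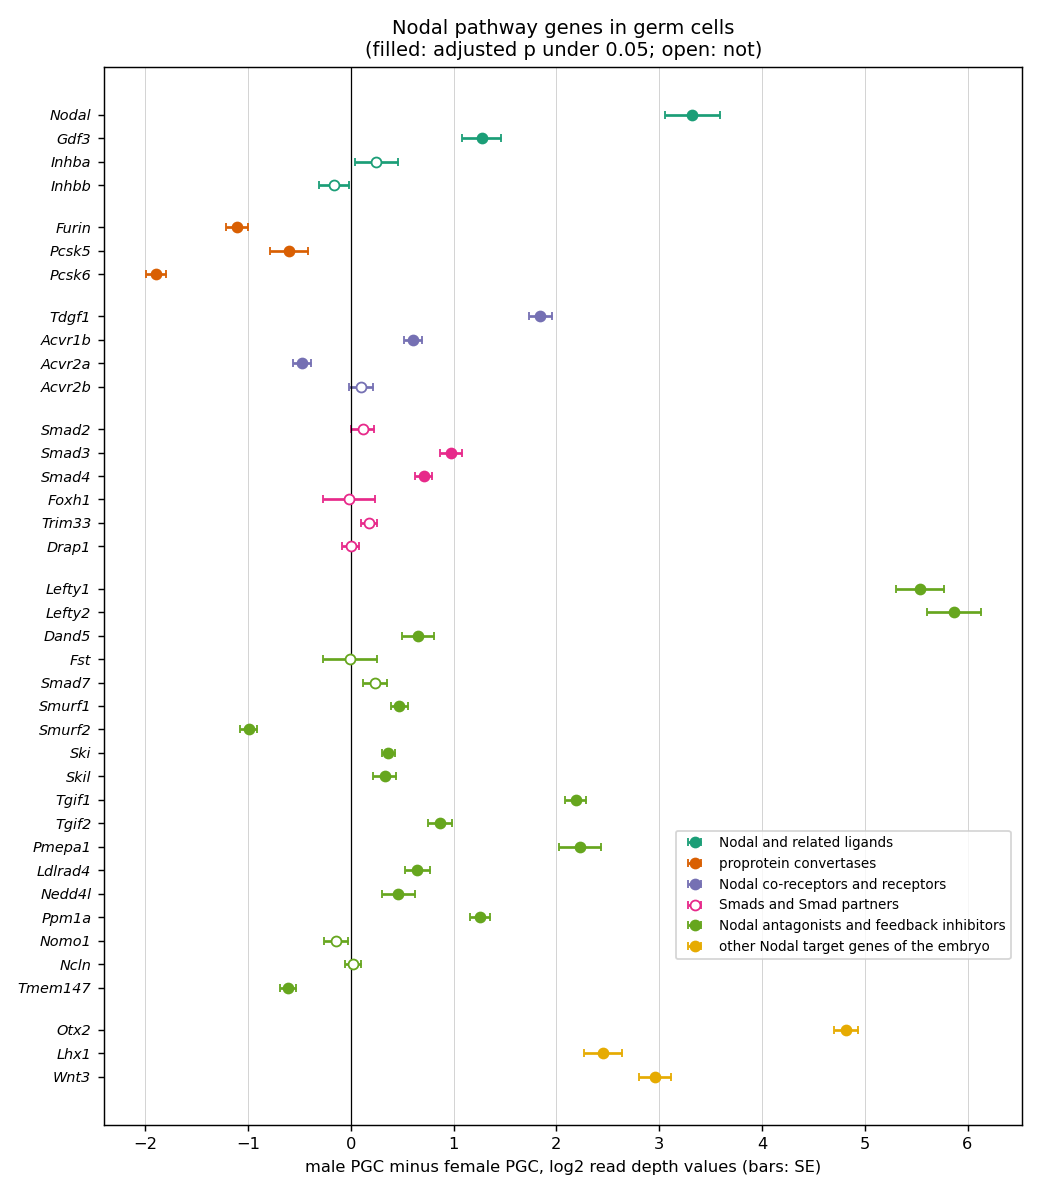
Differences between male and female PGCs in log2 read depth values (horizontal axis; bars are SE) for genes of the Nodal pathway by role; filled points passed an adjusted p of 0.05 and open ones did not. Nodal, Tdgf1, Lefty1 and Lefty2 and the only other embryo targets measured, Otx2, Wnt3 and Lhx1, lie to the right, the 3 convertases lie to the left, and most receptors and Smads lie within 1 of 0.

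Around Nanos2, the related genes split. Nanos3, which fetal germ cells need to survive, was higher in male PGCs by 2.23 ± 0.26, with 25.7 ± 7.96 CPM against 2.67 ± 2.13 CPM in female PGCs. Nanos1 was lower, at -1.54 ± 0.16, with 3.77 ± 0.088 CPM in male PGCs and 25.1 ± 0.285 CPM in female PGCs. Dnd1, the Nanos2 partner, was higher by 1.49 ± 0.22. The RNA-binding protein gene Rbpms was higher by 0.70 ± 0.15, and the Pumilio gene Pum2 differed by -0.07 ± 0.07. In all, 3 of 5 were higher and 1 lower. Nanos3 is in the tables only through male PGCs and Nanos1 only through female PGCs, so the directions of both follow from their place there. Of 15 measured CCR4-NOT and decapping genes, which remove the poly(A) tail and the cap of mRNAs, 6 were higher and 5 lower (median 0.10), shares near the 32.5% and 32.8% of all genes and no result about the list. Cnot1, the scaffold that Nanos2 binds, differed by -0.26 ± 0.06 and the deadenylase gene Cnot6l by -0.91 ± 0.06, Tob1 by -0.89 ± 0.13, Cnot2 by 0.76 ± 0.08 and the helicase gene Ddx6 by 0.26 ± 0.07, all 5 past the threshold. The calls of Cnot1 and Ddx6 ended in the cell number table (limma, adjusted p = 0.298 and 0.447), and that of Ddx6 also with quantile normalization (0.298), voom (0.0901) and either CPM pseudocount (0.076 and 0.0766).

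Genes on either side of Nanos2 in the choice of germ cell sex differed too. Beside each count below, 32.5% of all genes were higher in male PGCs and 32.8% lower. The 4 measured meiotic entry genes were all lower in male PGCs (median -3.21). Stra8, the gatekeeper of meiosis, which is in the tables only through female PGCs, had 3.17 ± 1.93 CPM in male PGCs and 564 ± 99.9 CPM in female PGCs (difference -6.22 ± 0.83; limma, adjusted p = 1.72e-05), and the cohesin gene Rec8 and the recombinase gene Dmc1 differed by -3.58 ± 0.30 and -2.84 ± 0.29. The fourth, the synaptonemal complex gene Sycp3, differed by -2.20 ± 0.61. Of 6 male germ cell programme genes 3 were higher, Tdrd5 by 2.37 ± 0.23, Piwil4 by 1.76 ± 0.31 and the cell cycle inhibitor gene Cdkn1b by 1.54 ± 0.12, and Piwil4 is in the tables only through male PGCs. Tdrd1 (0.48 ± 0.22), Tdrd9 (-0.29 ± 0.35) and Mael (-0.40 ± 0.57) did not pass. Without male PGC replicate 2, Tdrd1 passed as well, at 0.77. The main fit takes its spread from all 4 groups. Mael passed as lower in male PGCs with only the groups compared, at -0.40 ± 0.12 (limma, adjusted p = 0.0197). It also did so with voom on the reads (limma, adjusted p = 0.00471). Of 11 FGF and retinoid genes 7 were higher and 3 lower (median 0.74): the FGF receptor gene Fgfr2 was higher by 1.72 ± 0.13 and the FGF-induced factor gene Etv5 by 1.63 ± 0.11, while the receptor genes Fgfr3 and Fgfr1 were lower, at -3.47 ± 0.16 and -0.59 ± 0.11, as was Cyp26b1, which degrades retinoic acid, at -0.61 ± 0.17. Of the Egr family and its co-repressors, Egr1, Nab1 and Nab2 were all higher, by 1.15 ± 0.25, 0.60 ± 0.16 and 1.66 ± 0.24 (median 1.15). Egr1 had 6.14 ± 2.7 CPM in male PGCs against 67.2 ± 19.2 CPM in male soma (SD, n = 3 each), and its call against female PGCs ended with voom.

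The members resembled each other across the 12 libraries. Pearson's r of the read depth values was highest for Nanos2 with Egr4, at 0.989, and lowest for Egr4 with Lefty2, at 0.645. Every pair with Lefty2 other than Lefty1 (0.882) was at 0.718 or lower. All of these describe libraries of 4 groups, so a shared difference between groups is enough to give a high r. All members but Lefty2 are in the tables only through male PGCs, so a high r among those 5 follows from their place there. Of 12259 other named genes, 1.54% reached 0.95 with Nodal and 2.03% with Nanos2. The genes most like Nodal were Klhdc4, Ddx18, Mgat4a, Rbm25 and Phf5a (r of 0.979 to 0.985), and those most like Tdgf1 were Otx2, Krt42, Polr2e, Rpf1 and Bysl (0.991 to 0.996). Otx2 and Krt42 averaged 40.2 and 12.4 CPM in male PGCs, 0 in female PGCs and at most 0.045 CPM in either soma. Those most like Lefty1 were Wwc2, Pald1, Ptpn3, Mov10 and Mrps27 (0.978 to 0.984). Nearest to Lefty2 were Eif2s3y, Bcar3, Pdlim3, Kdm5d and Cul4a (0.958 to 0.971), and 0.0571% of genes reached 0.95 with it. Eif2s3y and Kdm5d lie on the Y chromosome. Eif2s3y averaged 169.9 CPM in male PGCs, 0.0319 CPM in female PGCs, 50.2 CPM in male soma and 1.77 CPM in female soma. Nearest to Nanos2 were Nphs1, Egr4, Mep1b, Gtsf1l and Nphs1os (0.988 to 0.99), of which Nphs1 and Nphs1os are antisense neighbours whose reads may be shared. Nearest to Egr4 were Usp4, Ctr9, Smg8, Snap47 and Iqcg (0.99 to 0.994). With Spearman's rho in place of Pearson's r, 0 to 2 of the 5 genes of each member were kept, and with log2 CPM in place of the read depth values 1 to 4 were.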

How the data were processed

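RNA was measured in 12 libraries of sorted gonad cells, grouped by their titles. Per the labels' protocols, a spike-in was added in proportion to cells and libraries were made with a directional kit. Per the submitters' processing notes, reads were handled with HTSeq 0.6.1p1, Trim Galore 0.4.0 and TopHat2 2.0.9 on build mm10, and limma 3.28.14, DESeq2 1.12.3 and edgeR 3.14.0 ran under R 3.3.0. The sources used here do not give the annotation or how counting treated strand. The authors deposited 2 tables of log2 values for the same genes, read here as normalized to cell number and to read depth. The transform of the read depth table is not stated.

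From the deposited log2 values of the cell number table, whole reads were recovered (100% of values whole within 0.001 reads) and scaled to CPM. Since the deposited values are log2, groups were compared with limma 3.58.1 (R 4.3.3) on them: 4 group means over all 12 libraries, with trend, p adjusted by Benjamini-Hochberg across 12845 genes, threshold 0.05. No pseudocount or filter was applied. The third-highest library of each gene was at 5.07 CPM or more. Chi-square tests of reads put every replicate pair apart by more than counting noise, at 5.43 to 30.4 times the degrees of freedom. Depth sets the precision of low values: intervals and limits cover counting error only. Motifs and tables were handled in numpy 2.4.6 and pandas 2.3.3 under Python 3.11.15, and the tests were tested on simulated data.

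The members and gene lists were chosen with earlier results of these data known. Named genes are all measured genes of the short lists, of the longer lists the 2 highest in level and the 3 with the largest difference between male and female PGCs, and the 5 genes with the highest correlation with each member, without unnamed gene models. For replicate values Nab2, Piwil4 and Tdrd9, and by name Smurf2, Tmem147, Sycp3 and Cyp26b1, were picked after their values were seen. Alternatives were the other table, median centring, quantile normalization, voom, CPM with a pseudocount of 0.5 or 2, a filter on the lowest 25% of genes, other variance models, only the groups compared, a replicate block, each library left out and a log2 difference of at least 1.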

Additional observations from a re-analysis of the deposited data

Results flagged for a closer look

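The excess of the germ cell minus soma difference in males over that in females passed the test of the difference itself for each of the 6 genes (limma interaction on read depth values, 3 libraries per group). For Nodal, Tdgf1, Lefty1, Nanos2 and Egr4, in the tables only through male PGCs, its direction had to be this one. It was 3.38 ± 0.38 for Nodal, 1.86 ± 0.16 for Tdgf1, 4.00 ± 0.33 for Lefty1, 1.51 ± 0.37 for Lefty2, 5.66 ± 0.48 for Nanos2 and 5.16 ± 0.45 for Egr4. Leaving out each of the 12 libraries in turn, all 6 passed every time. Lefty2 had the smallest excess, and it is the member with the highest male soma level.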

How the results depend on the processing

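The differences of male PGCs against female PGCs and against male soma kept their direction and passed the threshold for all 6 members under every alternative that gave a value, on both tables. For the 5 members in the tables only through male PGCs, all but Lefty2, the direction had to be this one. The alternatives used the same genes and cannot test it. Requiring a log2 difference of at least 1 also left both at 6. The filter on the lowest 25% of genes left 0 of the members in either table and gave no value. The count of 2 members higher in female PGCs than in female soma became 5 in the cell number table, 6 with quantile normalization, 0 with voom, 1 with a pseudocount of 2 CPM, 1 with a log2 difference of at least 1, and 1 to 3 with single libraries left out. The count of 2 in male against female soma became 1 with voom, and the interaction count of 6 became 3 with voom. These fits differ in how they treat low reads, but the cause was not tested. Among the gene lists for male against female PGCs, the 6 higher CCR4-NOT and decapping genes became 2 in the cell number table and 3 with quantile normalization, voom or either CPM pseudocount, and the 5 lower ones became 2 in the cell number table and 3 without male PGC replicate 1 or female PGC replicate 3. The 1 lower Nanos gene became 2 with quantile normalization, voom and both CPM pseudocounts, the 1 lower receptor became 0 in the cell number table, and the 0 lower genes of the male programme became 1 with voom or only the groups compared. The 0 lower ligands became 1 without male PGC replicate 1. A log2 difference of at least 1 left 1 of 2 higher and 0 of 1 lower receptors, 0 of 2 higher Smads, 5 of 12 higher and 0 of 2 lower antagonists, 4 of 7 higher and 1 of 3 lower FGF and retinoid genes, and 0 of 6 higher and 0 of 5 lower CCR4-NOT genes.

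Reversals fell on differences that had not passed. With single libraries left out, female PGC minus female soma ran from -0.0209 to 0.13 for Tdgf1, -0.0939 to 0.29 for Lefty1 and -0.12 to 0.39 for Lefty2, and male minus female soma from -0.31 to 0.29 for Nodal, from -0.10 to 0.42 for Egr4 and, per cell, from -0.42 to 0.31 for Tdgf1. Nodal in male minus female soma was 1.06 in the cell number table and 0.0121 with quantile normalization. For male minus female PGCs with libraries left out, Foxh1 ran from -0.21 to 0.17, Inhbb from -0.35 to 0.000379, Drap1 from -0.0873 to 0.0816 and Tdrd9 from -0.69 to 0.19. Drap1 was -0.0483 in the cell number table, -0.0438 with quantile normalization, -0.15 with voom and -0.14 with either CPM pseudocount. Smad2 was -0.0125, -0.0562 and -0.00272 or -0.00281 in quantile, voom and the CPM fits of 0.5 and 2, Acvr2b was -0.00545 and -0.00481 in those CPM fits, Foxh1 was 0.011 with median centring and 0.0566 with quantile normalization, and Inhbb was 0.000499 with quantile normalization.

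Replicate numbers gave no clear sign of pairing: correlations of deviations between same-numbered libraries ran from 0.0155 to 0.0511 for male PGCs with male soma, from -0.215 to 0.00559 for male with female PGCs, from -0.0715 to 0.0715 for female PGCs with female soma and from -0.361 to -0.118 between somas. Low values between different cell fractions cannot show whether same-numbered libraries came from the same gonads. With the replicate block the counts of members called were 6, 6, 2, 2 and 6 by read depth, the same as without it.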
